A study of Mus musculus with 2 samples.

Results

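The genes described here are 35 interferon-stimulated and class I antigen presentation genes of the mouse, chosen by name from a list and looked up in the gene symbols of the deposited count matrix. The matrix held 34 of the 35 among 27998 genes, and Mx2 was not analysed here. By role they were 5 regulators of the interferon signal (Irf1, Irf7, Irf9, Stat2, Usp18), 4 sensors of foreign nucleic acid (Ddx58, Ifih1, Dhx58, Zbp1), 15 antiviral effectors, 5 interferon-inducible GTPases (Gbp2, Gbp3, Gbp7, Igtp, Irgm1) and 5 genes of class I antigen presentation (Psmb8, Psmb9, Tap1, Tapbp, B2m). The effectors were Isg15, Ifit1, Ifit2, Ifit3, Oasl2, Oas1a, Rsad2, Bst2, Ifi27l2a, Ifi35, Rtp4, Xaf1, Parp14, Mx1 and Cmpk2. Their levels were read in single adipocyte precursor cells, the fibroblast-like cells of the fat pad from which new fat cells form.

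The cells came from subcutaneous fat of 12-day-old wild-type pups that had been raised by foster dams. The dams of 1 group made milk fat with a high n-6/n-3 ratio of polyunsaturated fatty acids (PUFA), and those of the other group milk fat with a low ratio. Each group gave 1 sample of flow-sorted precursors, with 3000 cells stated, captured with a droplet chemistry that reads the 3′ end of transcripts. The protocols describe the cells both as fresh and as frozen and thawed, and the number of pups per sample and the sorting markers were not given in the sources used here. No label tied either barcode suffix of the matrix to a diet, so the suffixes are called library 1 and library 2 throughout, and no value below belongs to a diet.

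Interferons are secreted proteins that bind receptors on the cell surface and start signalling through JAK kinases. Type I interferons lead to a complex with STAT2 and IRF9 that binds the interferon-stimulated response element, and interferon gamma acts through the gamma-activated site. The induced genes block virus entry, translation and replication, and they also raise the display of peptides on class I molecules, for which Psmb8 and Psmb9 encode immunoproteasome subunits, Tap1 a peptide transporter subunit, Tapbp the loading factor tapasin and B2m the light chain of the class I molecule.

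Promoter sequences were taken from RefSeq (GRCm38.p6), as windows from 250 bases before to 50 bases after a transcription start. Of the 35 genes 27 had a window. Usp18, Zbp1, Dhx58, Rtp4, Ifi27l2a, Parp14, Mx1 and Mx2 had none. The response element was searched as GAAANNGAAA on both strands, with overlapping matches allowed, and the gamma-activated site as TTCNNNGAA, which reads the same on both strands. The first was found in 15 of the 27 genes (55.6%), against 3.99% of 27025 genes in the table, and the second in 8 of 27 (29.6%), against 9.55%. All 5 GTPase genes held the response element, as did Ddx58 and Ifih1, whereas Psmb9, Tap1, Tapbp, Irf7, Irf9, Oasl2, Xaf1 and Cmpk2 matched neither search. A match is a description of letters in this window and does not show binding.

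Isg15, Ifit1 and Ifit3 are shown because their transcripts differed between cells or states, as described further on, and Ifit2 because it sits beside Ifit1 and Ifit3 on chromosome 19 and behaved differently. B2m and Bst2 are shown as abundant members with the element, Irf1 as an abundant member with only a gamma-activated site, and Oasl2 and Xaf1 as genes without either. Bst2 also holds a gamma-activated site, which overlaps its first element and is not marked as such. Capitals mark the response element in Isg15, Ifit1, Ifit3, B2m and Bst2 and the gamma-activated site in Ifit2 and Irf1, and each sequence runs 5′ to 3′ on the strand of its gene.
Isg15 (chr4:156200855-156200916, minus strand, 3 overlapping elements): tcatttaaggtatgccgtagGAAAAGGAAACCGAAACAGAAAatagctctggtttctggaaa
Ifit1 (chr19:34640765-34640833, plus strand, 2 elements): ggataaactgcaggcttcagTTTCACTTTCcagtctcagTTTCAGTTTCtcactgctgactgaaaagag
Ifit3 (chr19:34583353-34583436, plus strand, 2 elements): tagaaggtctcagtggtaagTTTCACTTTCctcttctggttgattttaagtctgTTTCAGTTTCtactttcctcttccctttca
Ifit2 (chr19:34550444-34550481, plus strand, 1 site): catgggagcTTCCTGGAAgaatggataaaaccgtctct
B2m (chr2:122147528-122147577, plus strand, 1 element): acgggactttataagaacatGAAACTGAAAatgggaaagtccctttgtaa
Bst2 (chr8:71537567-71537622, minus strand, 2 overlapping elements): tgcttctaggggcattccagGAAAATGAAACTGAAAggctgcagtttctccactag
Irf1 (chr11:53769904-53769952, plus strand, 1 site): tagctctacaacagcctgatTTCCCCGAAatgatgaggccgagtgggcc
Oasl2 (chr5:114896834-114896933, plus strand): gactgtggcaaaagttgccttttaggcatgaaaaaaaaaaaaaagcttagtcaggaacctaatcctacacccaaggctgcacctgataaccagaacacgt
Xaf1 (chr11:72301529-72301628, plus strand): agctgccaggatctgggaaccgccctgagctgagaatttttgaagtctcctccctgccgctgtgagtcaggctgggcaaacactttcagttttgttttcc
All 9 stretches lie upstream of the RefSeq start of their gene. In the GENCODE annotation 8 of them are in no transcript, and that of B2m is in an intron of the gene Patl2.

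The matrix held 6905 cell barcodes with 42092816 transcripts (unique molecular identifiers, UMIs) in library 1 and 43491307 in library 2, and 17 barcode sequences occurred in both libraries. After filters 3307 cells of library 1 and 3578 of library 2 were kept, with medians of 12962 and 12112.5 UMIs per cell. Clustering without the members and the other listed pathway genes gave 3143 Dpp4-type progenitor-like cells (1544 in library 1, 1599 in library 2), 1639 committed preadipocyte-like cells (742 and 897), 328 F3-type stromal-like cells (153 and 175) and 251 cycling cells (99 and 152). Genes outside those lists could enter the clustering, including any that vary with the members, so the states are not fully independent of them. Clusters 2, 4 and 7 (877, 449 and 85 cells) stayed unnamed and are counted as precursors, which made 6772 precursor cells in all. The named states are rebuilt here and were not given with the files. Pdgfra and Cd34, which mark fibroblast-like precursors, were at 104 and 1035 CPM (UMIs of the gene per 1000000 UMIs summed, with no term for gene length) in Dpp4-type cells and at 162 and 520 CPM in committed cells.

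Because there was 1 library per diet, no test between groups was possible. Ratios are given with conditional exact 95% intervals, levels with exact Poisson intervals and shares with exact Clopper-Pearson intervals, and all of them cover counting error only. A gene is called higher or lower when its summed CPM differed by at least 1.5-fold between 2 sets of cells. The share of all genes that did so is given with the counts of the main comparisons. For most alternative settings, described at the end, that share was not computed. The 3 comparisons between states share the Dpp4-type cells. In sums over many cells, fewer cells with a transcript and less transcript per cell cannot be told apart, and the concentration over cells is therefore described separately.

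Across all precursor cells the members ranged from abundant to barely seen. B2m was the most abundant with 863 CPM in library 1 and 989 CPM in library 2. Ifi27l2a, a small interferon-induced membrane protein gene, followed with 299 and 334 CPM, then Irf1, a transcription factor induced by interferon gamma, with 264 and 227 CPM. Tapbp stood at 129 and 136 CPM and Bst2, which tethers budding virus to the membrane, at 72.8 and 84.6 CPM. Gbp2, Gbp7 and Psmb8 lay between 27.3 and 62.3 CPM in the libraries. The lowest were Rsad2 (0.876 and 0.747 CPM), Oas1a (0.414 and 0.607 CPM) and Mx1, of which 4 UMIs were seen in library 1 and 1 in library 2. The order of the 5 most abundant members was the same in both libraries, while many of the genes between 4 and 20 CPM had levels within each other's counting intervals.

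**Figure D1:**
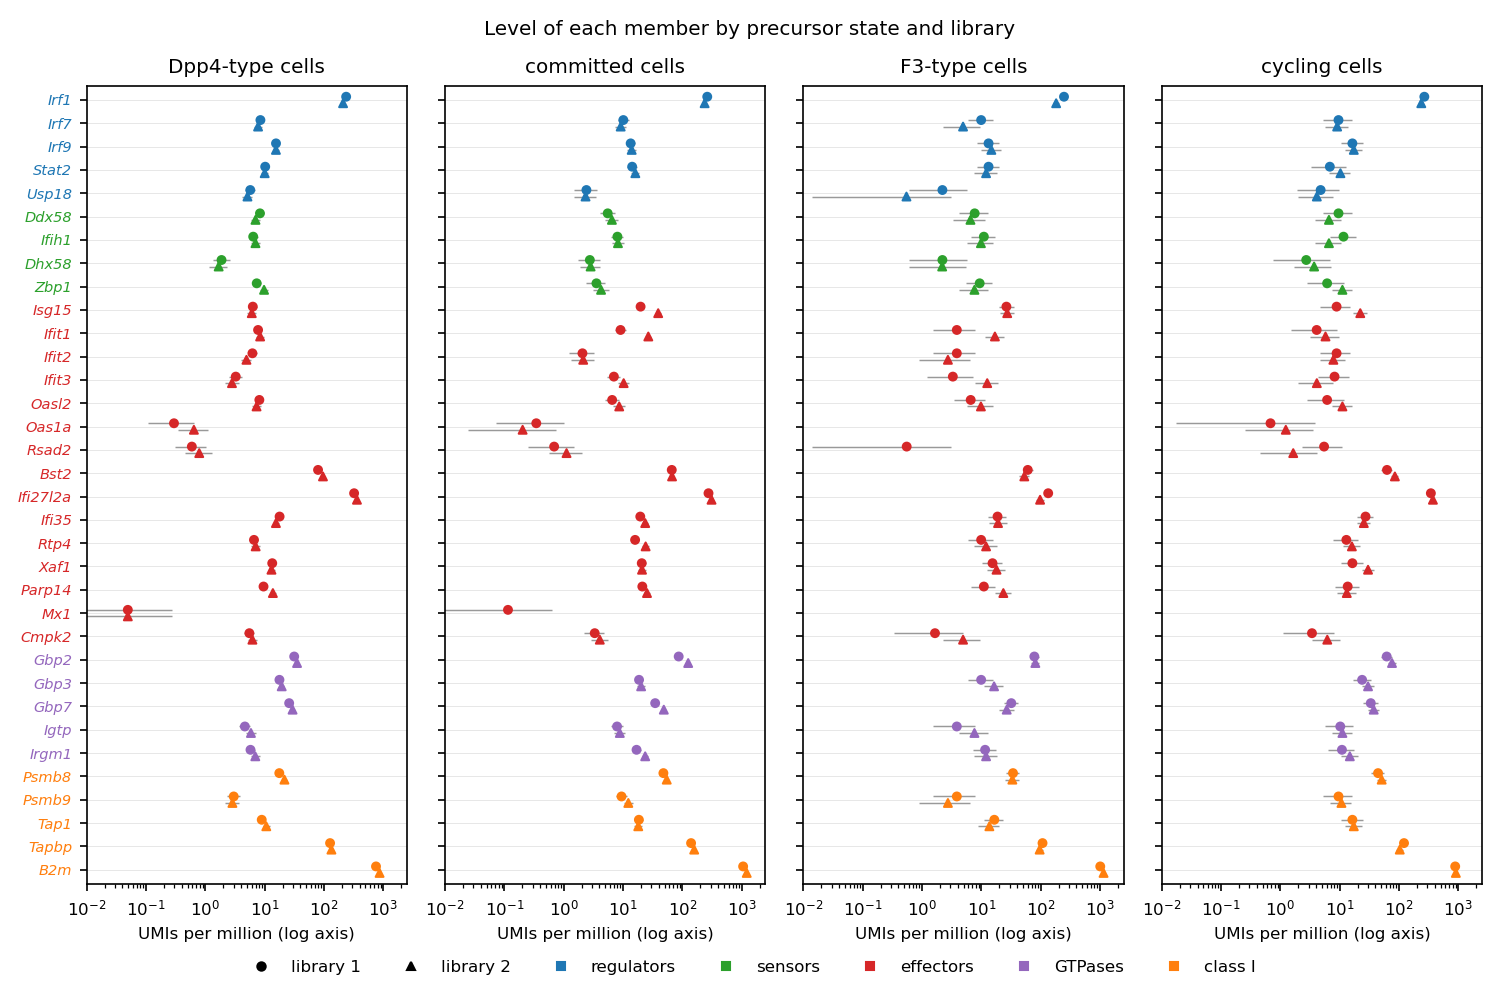
Level of the 34 members in 4 precursor states, on a log axis of CPM, with circles for library 1, triangles for library 2 and lines for exact 95% Poisson intervals; members at 0 UMIs have no point. B2m, Ifi27l2a, Irf1, Tapbp and Bst2 sit farthest right, Ifi27l2a less far in F3-type cells, and Isg15 and Ifit1 have their libraries apart in committed cells.

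Committed preadipocyte-like cells carried more of the members than Dpp4-type progenitor-like cells. With at least 10 CPM in 1 of the 2 states, 20 members could be compared. Of these 12 were higher in committed cells, where 8.39% of 6880 genes were higher, and 0 were lower, where 11.8% of genes were. The median log2 ratio was 0.63 over the 20 members and -0.12 over all genes compared. This filter passes a gene through the state where it is high. Without the level minimum, at 10 or more UMIs, 33 members could be compared. Then 15 were higher (12.9% of 14051 genes), 5 lower (18.7%) and 13 between.

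The largest ratio among the effectors was that of Isg15, a ubiquitin-like protein that is attached to other proteins. Isg15 stood at 6.30 CPM in library 1 and 6.05 CPM in library 2 of Dpp4-type cells, and at 19.7 and 39.1 CPM in committed cells, so the states did not overlap. Its log2 ratio was 2.28 (2.06 to 2.50). Rtp4, a chaperone-like gene with antiviral activity, went from 6.6 and 7.04 CPM to 15.9 and 24 CPM, a log2 ratio of 1.57 (1.34 to 1.80). Parp14, an ADP-ribosyltransferase, went from 11.6 to 23.3 CPM over both libraries, and Xaf1, a gene tied to cell death, from 13.2 to 20.8 CPM (log2 ratio 0.66, 0.46 to 0.85). Of the abundant effectors, Ifi35 (0.38), Ifi27l2a (-0.21) and Bst2 (-0.40) stayed short of 1.5-fold over both libraries, although Ifi35 passed it in library 2 (0.61, against 0.13 in library 1). Oasl2 (-0.01) and Rsad2 (0.41, on 28 and 17 UMIs) were too low for the level minimum, and Mx1 had 2 and 1 UMIs.

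The 3 Ifit genes did not move together between these states. Ifit3 was at 3.25 and 2.81 CPM in Dpp4-type cells and at 7 and 10.2 CPM in committed cells, a log2 ratio of 1.53 (1.18 to 1.88) that rests on 123 and 162 UMIs. Ifit2 was at 6.20 and 4.92 CPM in Dpp4-type cells and at only 2.07 and 2.13 CPM in committed cells, a log2 ratio of -1.41 (-1.94 to -0.91). Ifit1 was at 7.73 and 8.37 CPM in Dpp4-type cells and at 9.07 and 26.6 CPM in committed cells. Its log2 ratio of 1.19 was 0.23 in library 1 and 1.67 in library 2, so it was called in library 2 alone, and without the precursor cell of each library with the most of these transcripts it was 0.76.

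Other members were lower in committed cells together with Ifit2, all of them under 10 CPM in both states. With 5 of 33 members lower, against 18.7% of 14051 genes, the lower members were near the share of all genes. Zbp1, a sensor of Z-form nucleic acid, went from 8.54 to 3.93 CPM (log2 ratio -1.12, -1.51 to -0.75). Usp18, which removes Isg15 from proteins and dampens the receptor, went from 5.41 to 2.37 CPM (-1.19, -1.70 to -0.72). Cmpk2, a mitochondrial nucleotide kinase, had a log2 ratio of -0.66 (-1.07 to -0.27), and Oas1a had -0.80 on 19 and 5 UMIs with an interval that spans 0. Zbp1, Usp18, Cmpk2 and Ifit2 lay below 0 in each library.

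Among the GTPases, which attack membranes around intracellular microbes, Gbp2 showed the largest difference in CPM. Gbp2 was at 31.4 and 35.1 CPM in Dpp4-type cells and at 86.7 and 125 CPM in committed cells, a log2 ratio of 1.69 (1.59 to 1.79). Irgm1 went from 6.35 to 20.4 CPM (1.69, 1.46 to 1.92), and Igtp, under the level minimum, from 5.24 to 8.39 CPM (0.68, 0.37 to 0.98). Gbp7 had 0.61 (0.47 to 0.74), which was past 1.5-fold in library 2 (0.72) and not in library 1 (0.43). Gbp3, in the same cluster of Gbp genes on chromosome 3, was at 18.5 and 19.4 CPM in the 2 states, a log2 ratio of 0.07 (-0.12 to 0.25).

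Of the 5 class I genes 3 were higher in committed cells. Psmb8 went from 17.6 and 21.5 CPM in Dpp4-type cells to 47.9 and 54.5 CPM in committed cells (log2 ratio 1.39, 1.26 to 1.53), and Psmb9 from 3.00 and 2.85 CPM to 9.41 and 12.3 CPM (1.90, 1.57 to 2.24). Tap1 had a log2 ratio of 0.90 (0.69 to 1.11). B2m had 0.50 (0.47 to 0.52) and Tapbp 0.21 (0.14 to 0.27), both above 0 beyond counting error and both short of 1.5-fold. Psmb8, Psmb9, Tap1 and Tapbp all lie on chromosome 17, where Psmb9 and Tap1 overlap at their starts and run in opposite directions.

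Of the 5 regulators and 4 sensors, Usp18 and Zbp1 were lower and Stat2 and Dhx58 higher past 1.5-fold. Irf1 had a log2 ratio of 0.16 (0.11 to 0.21), Irf9 -0.17 (-0.39 to 0.04) and Irf7, the factor that amplifies type I interferon, 0.24 (-0.03 to 0.51). Stat2 was just past the threshold at 0.59 (0.37 to 0.82), with 0.48 in library 1 and 0.69 in library 2. The RNA sensors Ddx58 (RIG-I) and Ifih1 (MDA5) had -0.34 and 0.28, Ddx58 being past 1.5-fold in library 1 (-0.59) and not in library 2 (-0.11), while Dhx58, their relative without a signalling domain, had 0.66 (0.12 to 1.19) on 72 and 52 UMIs.

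**Figure D2:**
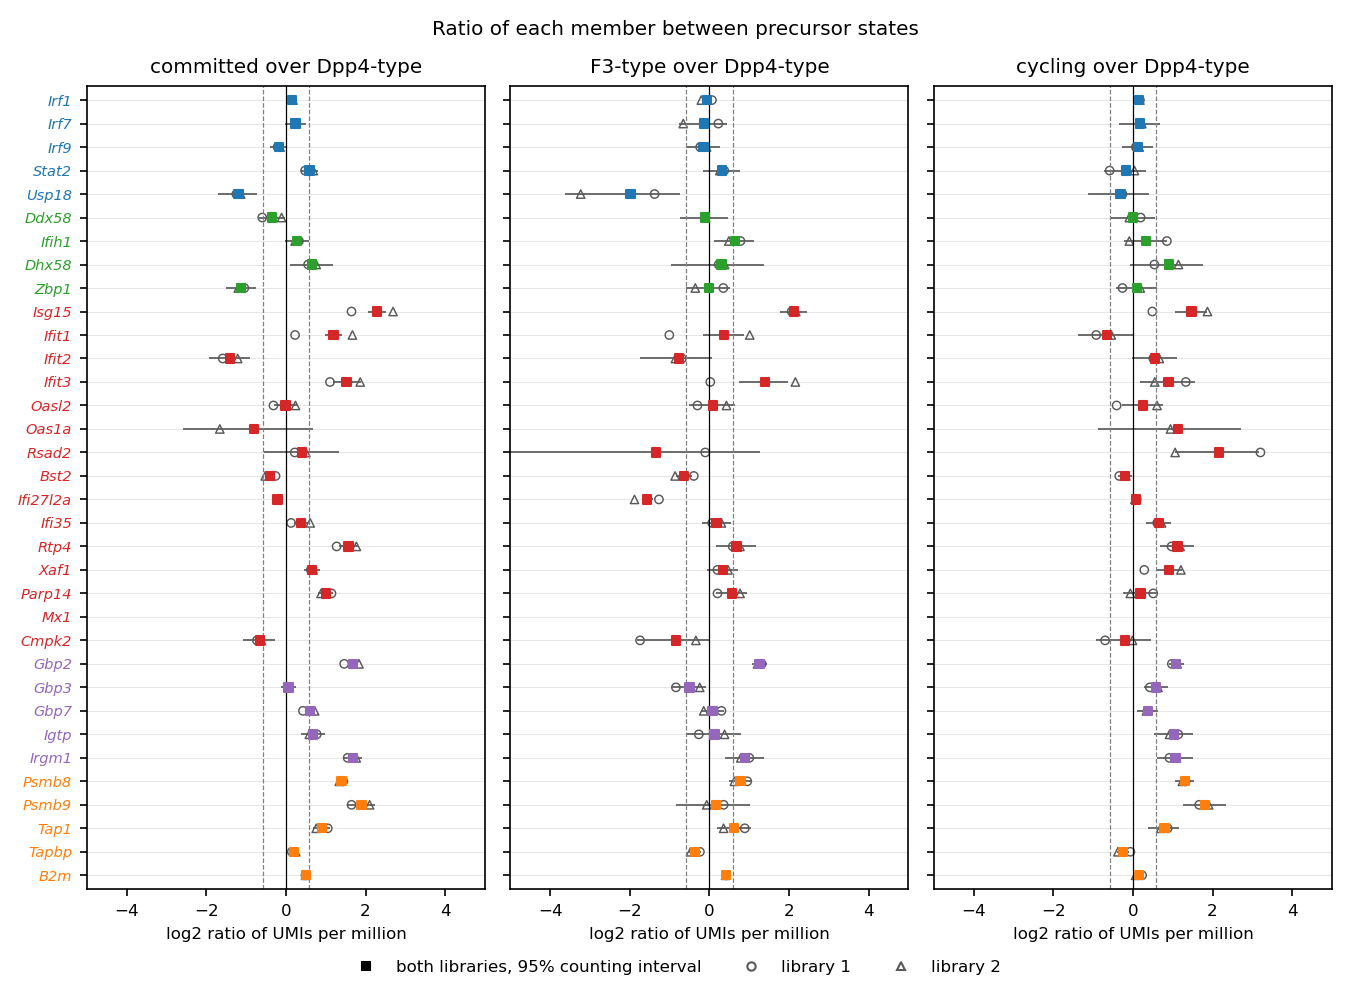
Log2 ratio of each member in committed, F3-type and cycling cells over Dpp4-type cells; squares are both libraries with 95% counting intervals, open circles library 1, open triangles library 2, and dashed lines mark 1.5-fold. Only members with 10 or more UMIs in the comparison and at least 1 in each state are drawn; Isg15, Psmb9, Gbp2 and Irgm1 stand to the right in committed cells, and Ifi27l2a lies below the lower dashed line in F3-type cells and between the lines in the others.

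In F3-type stromal-like cells 7 of 20 members were higher than in Dpp4-type cells (10.4% of 7064 genes) and 2 were lower (10.2%). Without the level minimum 8 of 33 were higher (15.5% of 13652 genes) and 7 lower (18.7%), so the lower members were near the share of all genes. Isg15 was at 26.4 and 27.2 CPM (log2 ratio 2.12, 1.77 to 2.46), Gbp2 at 78.1 and 81.2 CPM (1.26) and Psmb8 at 34.1 and 33.2 CPM (0.78). Irgm1 (0.89), Rtp4 (0.68), Ifih1 (0.64) and Tap1 (0.62) were higher by less. Ifi27l2a was lower in both libraries, at 134 and 97.5 CPM against 321 and 359 CPM in Dpp4-type cells, a log2 ratio of -1.56 (-1.70 to -1.42). Bst2 was lower by less (-0.63, -0.84 to -0.43), and in library 1 it was short of 1.5-fold (-0.39). Ifit1 differed in direction between the libraries, -1.01 on 7 F3-type UMIs in library 1 and 1.01 on 31 in library 2.

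In cycling cells 10 of 20 members were higher than in Dpp4-type cells (15.1% of 7361 genes) and 0 lower (2.53%). Without the level minimum 14 of 33 were higher (19.9% of 13677 genes) and 1, Ifit1, lower (10.3%). Psmb9 stood at 9.52 and 10.7 CPM (log2 ratio 1.81, 1.25 to 2.33) and Psmb8 at 44.2 and 50.9 CPM (1.31, 1.07 to 1.54). Rtp4, Gbp2, Irgm1 and Igtp had ratios of 1.12, 1.09, 1.07 and 1.04. Isg15 was at 8.84 CPM in library 1 and 22.2 CPM in library 2, and its log2 ratio was 0.49 in the first and 1.87 in the second. Xaf1 likewise had 0.29 and 1.20. Erythroid markers summed to 6110 CPM in cycling cells of library 1 and to 20.1 CPM in those of library 2, and their part in these values was not tested. When cells with 3 or more transcripts of 14 type I genes were left out, the count of higher members was 3 in place of 10. That choice lowers these genes by its own construction, and the share of all genes was not computed for it.

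Macrophage and endothelial markers were lower in committed than in Dpp4-type cells. The 8 macrophage or monocyte markers summed to 23.5 and 16.7 CPM in committed cells of the 2 libraries against 26.8 and 18.1 CPM in Dpp4-type cells, and the 8 endothelial markers to 94.5 and 83.4 CPM against 162 and 146 CPM. The 6 lymphocyte markers were higher, at 0.803 and 1.72 CPM against 0.738 and 0.935 CPM, as were the 5 mast cell or granulocyte markers, at 0.344 and 2.03 CPM against 0.246 and 1.92 CPM. The 5 erythroid markers summed to 867 and 19.4 CPM against 864 and 20.7 CPM. The part of these cells in the members' levels was not tested beyond the estimate that follows. None of the 8 macrophage or 8 endothelial markers was at 0 in either state, and 3 of 5 dendritic markers were at 0 in Dpp4-type cells and 4 of 5 in committed cells. As a scale for free RNA, C1qa, a macrophage gene, had a UMI in 5.99% (5.20 to 6.86) of precursor cells in library 1 and 2.66% (2.16 to 3.25) in library 2. The endothelial gene Cldn5 had one in 14.4% and 11.7%, and the haemoglobin gene Hba-a1 in 85.9% and 4.81%, at median depths of 12976.5 and 12120 UMIs. If all C1qa, Cldn5 and Hba-a1 in precursors were free RNA, and each source brought the members in the ratio seen in its own cells, it would account for a median of 1.84% of a member's level in library 1 and 1.15% in library 2. That figure was 10.7% for Isg15 in library 1 and 3.85% in library 2, and it passed 20% for Rsad2 alone, at 44.0% and 25.9%.

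Between the libraries the members were nearly level in Dpp4-type cells. With scaling by trimmed means (TMM), 0 of 15 members at 10 CPM or more were higher in library 2 and 0 were lower, and 0.281% of 6770 genes were called in each direction. The median log2 ratio of the 15 was 0.15, with Irf1 at 237 and 209 CPM (-0.18, -0.24 to -0.12). Under 10 CPM, Ifit1 was at 7.75 and 8.34 CPM (0.11, -0.22 to 0.43) and Isg15 at 6.32 and 6.04 CPM (-0.07, -0.43 to 0.30). Parp14 had the largest ratio of the 15, from 9.58 to 13.7 CPM (0.52, 0.25 to 0.79).

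In committed cells 3 of 22 members were higher in library 2 (0.741% of 6481 genes) and 0 were lower (0.386%). This filter passes a gene through the library where it is high, which was so for Ifit1, while Isg15 and Rtp4 passed 10 CPM in both. The share of all genes without the level minimum was not computed for the libraries. Ifit1 was at 9.04 CPM in library 1 and 26.7 CPM in library 2 (log2 ratio 1.56, 1.20 to 1.95), Isg15 at 19.7 and 39.2 CPM (0.995, 0.73 to 1.26) and Rtp4 at 15.9 and 24.1 CPM (0.60, 0.29 to 0.91). Ifit3, Gbp2, Irgm1 and Gbp7 followed at 0.56, 0.54, 0.49 and 0.49. A single committed cell of library 2 held 95 of the 263 Ifit1 UMIs and 55 of the 386 Isg15 UMIs there. Without it and its counterpart of library 1, a Dpp4-type cell, the ratios were 0.92 for Ifit1, 0.78 for Isg15 and 0.59 for Rtp4. Leaving out cells with 3 or more transcripts of the 14 type I genes, a choice that lowers these genes by its own construction, gave 0.01 for Ifit1, 0.07 for Isg15 and 0.21 for Rtp4, while Gbp2 kept 0.45. Whether the ratios differ between the states was not tested, since each rests on 1 library against 1.

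Both libraries held cells with at least 4 UMIs of Xist and none of the Y-linked genes (Xist-positive) and cells with a Y-linked UMI and at most 1 of Xist (Y-positive), so each library mixed cells of both kinds. In committed cells Ifit1 was at 7.49 and 43.4 CPM in Xist-positive cells of the 2 libraries, a ratio of 5.80 (3.93 to 8.86), and at 14.6 and 14.9 CPM in Y-positive cells, a ratio of 1.02 (0.63 to 1.65). The 14 type I genes summed to 89.8 and 187 CPM in Xist-positive cells and to 129 and 132 CPM in Y-positive cells. Without the single highest cell of each library the Xist-positive ratio was 2.71 (1.77 to 4.27) for Ifit1 and 1.64 (1.44 to 1.88) for the 14 genes. For Isg15 the Xist-positive ratio without those cells was 2.09 (1.58 to 2.78). With all cells, Isg15 had ratios of 2.79 (2.14 to 3.68) in Xist-positive and 1.42 (0.988 to 2.05) in Y-positive cells. In Dpp4-type cells Ifit1 went the other way in Xist-positive cells, from 9.24 to 5.41 CPM. In Y-positive cells it went from 4.23 to 11.6 CPM, and the sums over both hide this. Without the highest cell of library 1, a Dpp4-type cell, its Xist-positive ratio was 0.65 (0.44 to 0.95). There the 14 genes had 0.93 (0.84 to 1.04) in Xist-positive and 1.25 (1.09 to 1.44) in Y-positive cells. With all Dpp4-type cells, Isg15 (0.81 and 1.24) and Rtp4 (1.12 and 1.51) had intervals that span 1. These ratios compare cells of 1 library with cells of 1 other, and the difference between the 2 kinds of cell was not tested.

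The transcripts of some members sat in few cells. For each gene the variance of its UMIs over the cells of a library was divided by the variance of a Poisson count with the same level in each state and each cell's own depth, so a value near 1 is what counting alone gives. For a gene of a few CPM the ratio stays near 1 even when cells differ in level, so a low value does not show an even spread. Of the 32 members with a UMI in at least 20 cells of each library, 10 had a ratio of at least 1.5 in both libraries, against 5.4% of 12346 genes. Oas1a had too few cells in library 1 and Mx1 in both. The medians were 1.28 and 1.35 over the members and 1.04 and 1.05 over all genes.

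Ifit1 was the member with the highest ratio in library 2, at 23.6, and had 4.12 in library 1. Without the single highest cell of each library these were 9.89 and 4.02. It had a UMI in 5.25% of precursor cells in library 1 and 6.46% in library 2, where Poisson counting would give 9.16% and 14.8%, and the 1% of cells with the most Ifit1 held 49.8% and 59.8% of its UMIs. Isg15 had ratios of 3.94 and 8.73, and its top 1% of cells held 43.3% and 45.6% of its UMIs. Without the same cells its ratios were 3.84 and 5.13, and 10 members still passed 1.5 in both libraries. Ifi27l2a reached 7.86 and 7.05 in another way, since 80.6% and 80.3% of cells had a UMI and 830 and 1021 cells had 5 or more.

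Irf1 (2.90 and 2.54), Gbp2 (2.14 and 2.29), B2m (2.03 and 2.28), Bst2 (2.0 and 1.93), Xaf1 (1.84 and 1.96), Rsad2 (2.16 and 1.92) and Gbp7 (1.52 and 1.65) made up the rest of the 10. The ratios of Rsad2 rest on 36 UMIs in 27 cells of library 1 and 32 UMIs in 23 cells of library 2. An abundant gene can pass this ratio with modest variation between cells, because its Poisson variance is small beside its level. The lowest ratios were those of Irf9 (1.04 and 1.01), Psmb9 (0.997 and 1.07), Ifit2 (1.08 and 1.03), Dhx58 (1.02 and 1.03), Ddx58 (1.04 and 1.07), Stat2 (1.08 and 1.09) and Ifi35 (1.10 and 1.06). Ifit1 and Ifit2, at 8.05 and 5.56 CPM in Dpp4-type cells, thus had unlike ratios. Tapbp, at 129 and 136 CPM, where the ratio has more power, had 1.12 and 1.17. Psmb8 had 1.30 and 1.28. Several genes with a low ratio (Psmb9, Dhx58, Ddx58, Stat2, Ifi35) were nonetheless higher in the cells chosen on other members, as given further on.

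**Figure D3:**
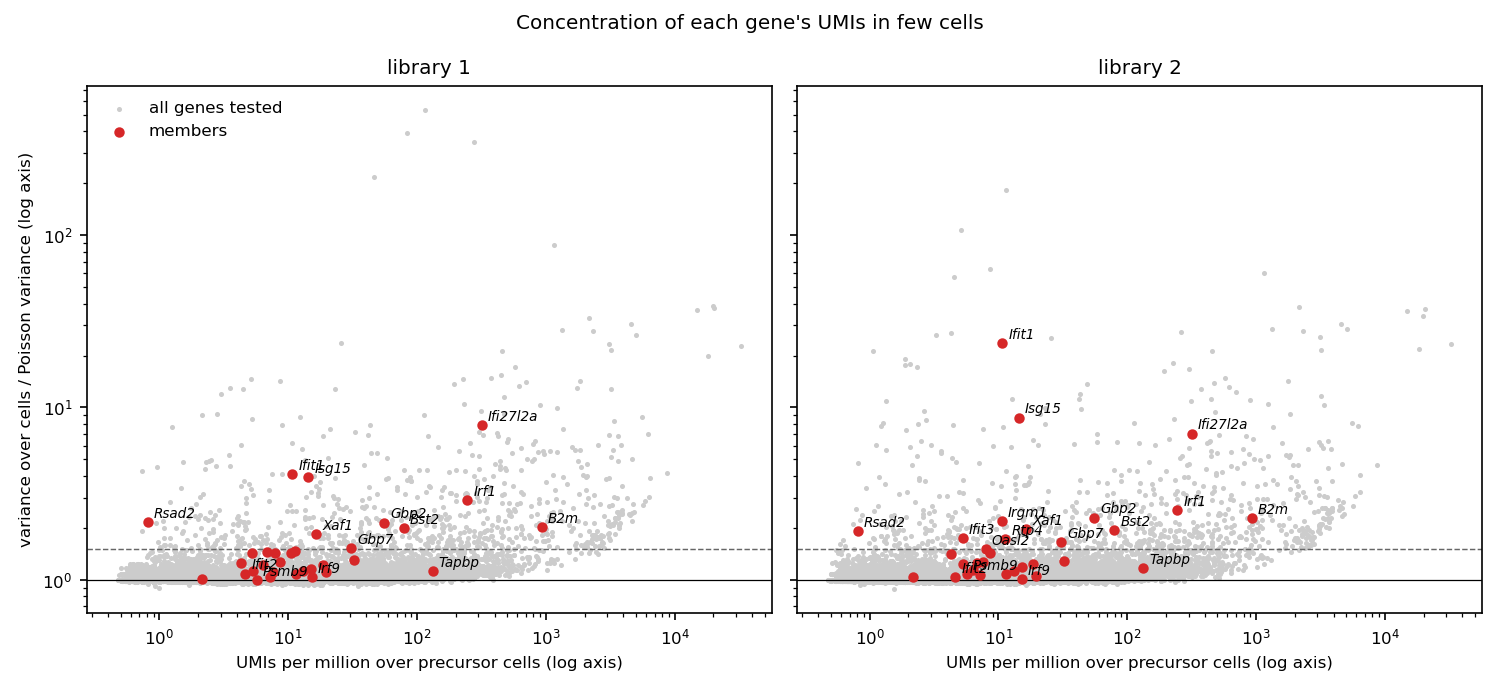
Variance of UMIs over precursor cells divided by the Poisson variance, against level, both on log axes, for all 12346 genes compared (grey) and the 32 members among them (red), in each library. The solid line is Poisson counting alone and the dashed line the ratio of 1.5; Ifit1 and Isg15 stand far above other members of their level, while Ifit2, Psmb9, Irf9 and Tapbp lie near the solid line.

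To see whether single cells carried several type I genes at once, UMIs of 14 genes (Ifit1, Ifit3, Rtp4, Usp18, Zbp1, Mx1, Cmpk2, Isg15, Ifit2, Irf7, Oasl2, Rsad2, Xaf1, Dhx58) were summed in each cell after thinning every cell to 7470 UMIs. Of the precursor cells 351 in library 1 and 298 in library 2 were shallower and were left out. Most cells had none, the median being 0 in each library. In library 1, 161 of 2889 cells had 3 or more (5.57%, 4.76 to 6.47). In library 2, 217 of 3234 cells did (6.71%, 5.87 to 7.63). Unthinned the shares were 11.2% and 11.9%. At least 5 were found in 55 and 92 cells, 1.90% and 2.84%, where a Poisson count at the mean would give 0.0627% and 0.152%. These cells showed a median of 4 of the 14 genes, and 47 of 55 and 85 of 92 showed 3 or more, but in 18 and 29 of them a single gene gave most of the UMIs. Isg15 gave the most UMIs in 18 of the 55 cells and 27 of the 92, and Ifit1 in 12 and 31.

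By state, 4.83% (3.77 to 6.10) of Dpp4-type cells in library 1 and 4.31% (3.33 to 5.47) in library 2 had 3 or more. In committed cells the shares were 6.64% (4.88 to 8.78) and 10.2% (8.18 to 12.4). The interval of library 1 overlapped both intervals of Dpp4-type cells, and that of library 2 lay above them. These intervals count cells within 1 library and hold no spread between samples, so a difference between states or libraries was not tested. F3-type cells had 7.14% and 7.93% and cycling cells 8.43% and 11.9%, with wide intervals from 83 to 164 cells. The cell with the most in library 1 was a Dpp4-type cell with 35 unthinned UMIs over the 14 genes. In library 2 it was the committed cell with 162, which also held 158 UMIs of the chemokine gene Cxcl10 and none of C1qa or Hba-a1, and next came a cell of cluster 4 with 75, of which 55 were Ifit1.

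**Figure D4:**
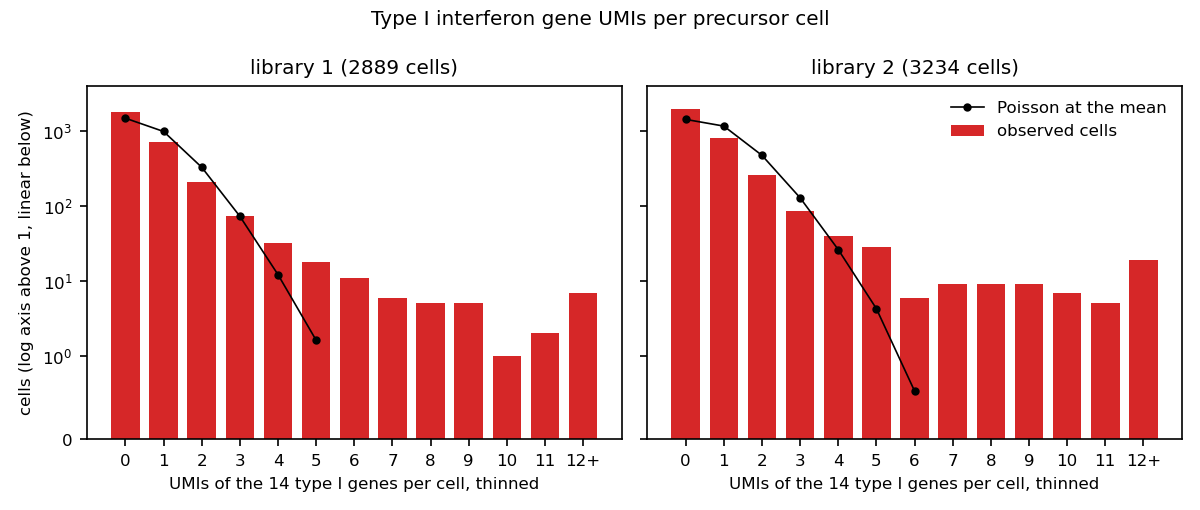
Number of precursor cells by UMIs of the 14 type I genes after thinning to 7470 UMIs, in each library; bars are observed cells, points a Poisson count at the observed mean, and the vertical axis is logarithmic above 1. The observed bars fall below the points at 1 and 2 UMIs and run past them from 4 UMIs on, to 12 or more.

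Genes not used to choose cells were then read in cells chosen on others. In each library the 5% of precursor cells with the most UMIs of Ifit1, Ifit3, Rtp4, Usp18, Zbp1, Mx1 and Cmpk2 per total were taken, 162 and 177 cells, with no member of the second set of 7 used. The cells just inside the choice had 1.88 and 2.12 such UMIs per 10000 and those just outside 1.88 and 2.11. The second set (Isg15, Ifit2, Irf7, Oasl2, Rsad2, Xaf1, Dhx58) summed to 234 CPM in the chosen cells of library 1 against 42.7 CPM in the others, a ratio of 5.48 (4.92 to 6.10). In library 2 it was 328 against 45 CPM, a ratio of 7.28 (6.66 to 7.96). Chosen on the second set, cells had 5.52 times (4.87 to 6.24) and 8.55 times (7.79 to 9.39) the first set. Median depths were 12107.5 and 11882 UMIs in the chosen cells and 13014.5 and 12149 in the others.

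Of the 23 unused members with a mean of at least 5 CPM, 18 were at least 1.5-fold higher in the chosen cells of both libraries, against 0.865% of 8436 genes, and with the second set as the choice 17 of 22 were, against 0.83% of 8435 genes. Isg15 was at 93.2 against 7.24 CPM in library 1 and 160 against 10.3 CPM in library 2, ratios of 12.9 (10.6 to 15.6) and 15.5 (13.4 to 18). Oasl2 had ratios of 6.98 and 8.90, Irf7 of 4.10 and 5.09, Igtp of 4.37 and 3.97, Xaf1 of 3.60 and 3.91 and Irgm1 of 3.53 and 6.22. The sensors Ifih1 (2.33 and 3.45) and Ddx58 (3.03 and 1.99) were higher too, as were Stat2 (2.12 and 2.23), Gbp2, Gbp3, Gbp7, Parp14, Ifi35 and Bst2. Of the class I genes Tap1 (2.53 and 2.59), Psmb9 (2.06 and 2.48) and Psmb8 (1.68 and 1.80) were higher.

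The 5 that were not were B2m (1.26 and 1.37), Irf9 (1.89 and 1.40), Irf1 (1.06 and 0.99), Ifi27l2a (1.58 and 1.34) and Tapbp (1.09 and 1.21). Irf1 was thus uneven over cells by the variance ratio. In cells chosen on the second set it had ratios of 1.12 (1.03 to 1.22) and 1.12 (1.03 to 1.23), above 1 and short of 1.5-fold. In those chosen on the first set it was level with the other cells. Under 5 CPM, Ifit2 had 1.19 (0.58 to 2.17) and 1.69 (0.91 to 2.93) and Dhx58 2.44 and 2.39. Rsad2 had 8.23 and 19.9 on 10 and 16 UMIs in the chosen cells, and Oas1a 8.92 and 2.59 on 8 UMIs in the chosen cells of both libraries. Over the whole matrix, at 20 CPM or more in the chosen cells, the 10 genes with the largest ratios in both libraries included Isg15, Oasl2, Irf7, Igtp, Xaf1 and Irgm1. The other 4 were Gm4951, the chemokine Cxcl9 (7.49 and 8.09), the GTPase Iigp1 (6.42 and 7.40) and Rnf213, a ubiquitin ligase (4.80 and 3.46). The minimum of 20 CPM passes a gene through the chosen cells, where it is high. Further down this ranking were the cycling markers Cdk1 (2.72 and 2.61), Ube2c (3.18 and 2.47) and Top2a (2.24 and 1.87). The other cycling markers are not given here.

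Of the chosen cells 22.2% in library 1 and 42.4% in library 2 were committed cells, against 22.9% and 24.5% of the others. Cycling cells made up 5.56% and 4.52% of the chosen cells, against 2.92% and 4.29% of the others, and their part in the ratios was not tested. Macrophage markers summed to 26.2 CPM in the chosen and 25.6 CPM in the other cells of library 1 and to 15.6 and 17.0 CPM in library 2, with 2 and 1 of the 8 markers at 0 in the chosen cells. Erythroid markers summed to 840 against 1064 CPM in library 1 for this choice. For cells chosen on the second set they summed to 4955 against 866 CPM in library 1 and to 21.5 against 20.1 CPM in library 2, and their part in the ratios of library 1 was not tested. With the cells chosen within each state the ratios of the second set were 5.15 and 6.69.

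**Figure D5:**
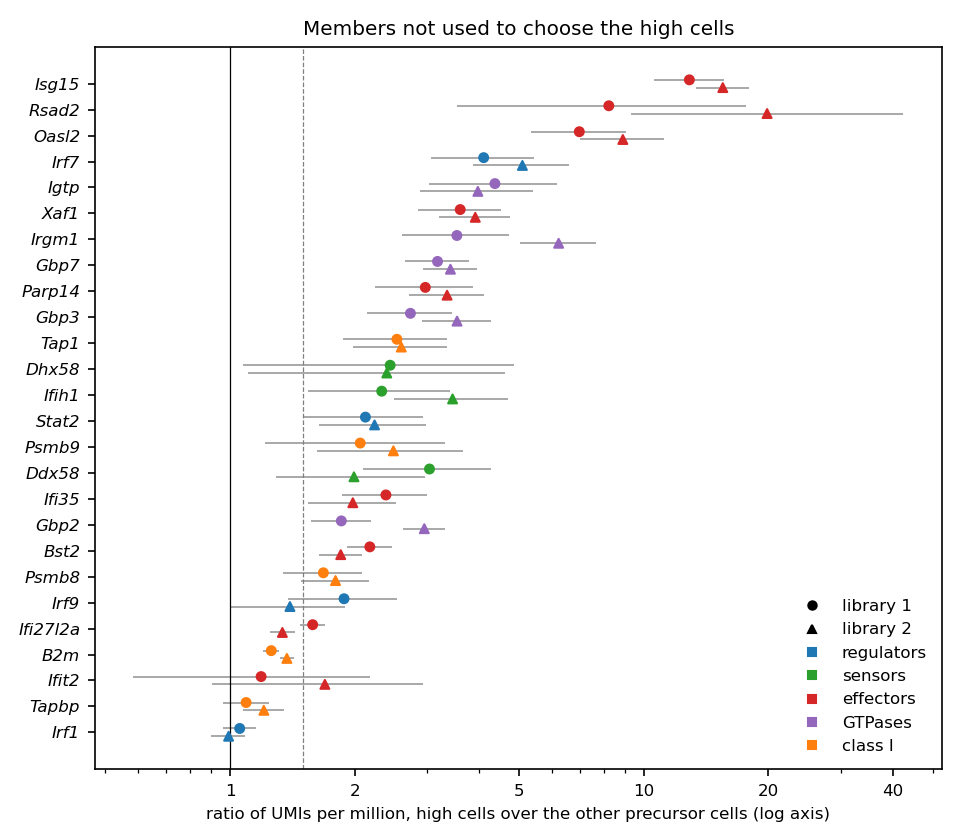
Ratio of each member not used for the choice in the 5% of precursor cells highest in Ifit1, Ifit3, Rtp4, Usp18, Zbp1, Mx1 and Cmpk2 over the other precursor cells, on a log axis, for members with 20 or more UMIs in each library; circles are library 1, triangles library 2, lines 95% conditional exact intervals and the dashed line 1.5-fold. Isg15 (12.9 and 15.5) and Rsad2 (8.23 and 19.9, on 10 and 16 UMIs in the chosen cells) stand highest, and Irf1, Tapbp and B2m lie near 1.

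Other genes of the pathway were read from lists of their own. Of the ligands, Ifna4 and Ifnl2 had 0 UMIs in the 6772 precursor cells, which allows up to 0.0357 CPM (3 counts), Ifnb1 had 1 UMI and Ifng 6. The receptors were present in precursors, Ifnar1 at 25.1, Ifnar2 at 74.2, Ifngr1 at 42.8 and Ifngr2 at 39.6 CPM, with the kinases Jak1 at 177 and Jak2 at 27.0 CPM. Between committed and Dpp4-type cells 5 of 12 ligand, receptor and kinase genes at 10 CPM were higher and 0 lower, among them Ifngr2 (27.3 and 56.1 CPM in Dpp4-type and committed cells, log2 ratio 1.04) and Ifnar2 (0.59). Of 5 nucleic acid sensing genes 2 were higher and 0 lower, and of 24 further interferon-stimulated genes 14 were higher and 2 lower. Over all genes 8.39% were higher and 11.8% lower. Without the level minimum, where 12.9% and 18.7% of all genes were called, 6 of 16 ligand, receptor and kinase genes, 2 of 11 sensing genes and 26 of 45 interferon-stimulated genes were higher, and 0, 0 and 3 lower. Iigp1 went from 9.11 to 58.1 CPM (2.67), Slfn5 from 14.8 to 64.2 CPM (2.12), Ifi203 from 83.6 to 227 CPM (1.44), Cxcl10 from 179 to 341 CPM (0.93) and Lgals9 from 145 to 75.3 CPM (-0.95). Of 14 further class I genes 7 were higher and 0 lower (10 and 0 of 18 without the minimum), led among those over 50 CPM by H2-Q4 (46.8 to 192 CPM, 2.04), with H2-D1 at 295 and 489 CPM (0.73). None of the 7 class II genes reached 10 CPM in either state, and without the minimum 0 of 6 were higher and 1 lower.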

How the data were processed

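Single-cell RNA-seq (droplet 3′ UMI libraries) was available for 1 sample of each of 2 diet groups. The authors deposited 1 matrix of raw UMI counts per gene and cell with both libraries; the submitters' processing notes name Cell Ranger, Seurat 3.0.1 and mm10. Cells with at least 500 genes and at most 10% mitochondrial UMIs were kept. Scanpy 1.11.5 normalized to 10000, took 2000 variable genes (without the listed interferon and cycling genes and the mitochondrial and ribosomal genes), 30 components, 15 neighbours and Leiden clustering at 0.5. A cluster was named when at least 3 and at least 60% of a list's markers reached 20 CPM and 1.5-fold over the other cells; this rule was set after seeing the data, and so was leaving out the cells with the most type I transcripts and splitting libraries by Xist and Y-linked UMIs. No doublet caller was run; leaving out the top 5% of cells by UMIs was an alternative. UMIs were summed per state and library (numpy 2.4.6, scipy 1.17.1). Libraries were compared with TMM scaling. No label says how reads shared by near-identical copies (Gbp, Ifit and H2 genes) were counted, so those levels are uncertain.

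All 34 members are accounted for in the text; other pathway genes were named from 50 CPM, and genes from the whole matrix as the 10 with the largest smaller ratio of the 2 libraries. Members, lists and comparisons were chosen with earlier results of these data known. The computations were tested on simulated data. Promoters and their coordinates are from RefSeq GRCm38.p6 and were set against GENCODE vM21 transcripts.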

Additional observations from a re-analysis of the deposited data

Results flagged for a closer look

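These values come from the few cells outside the precursor states, which entered no comparison. They are listed because a member there reached at least 50 CPM and at least 4 times its precursor level, with a lower counting limit over 2 times that level. In the 49 endothelial-like cells Isg15 was at 99.1 CPM (14.4 CPM in precursors), Parp14 at 84.5 (15.1), Rtp4 at 75.1 (11.3) and Irgm1 at 72 CPM (10.6), with a UMI in 30, 32, 30 and 23 of the cells. In the 46 macrophage or monocyte-like cells Isg15 was at 136 CPM, from 59 UMIs in 14 cells. In the 18 erythroid-like cells, all of library 1, Isg15 was at 69.3 CPM, but its 14 UMIs were in 1 cell, and Rsad2 was at 74.2 CPM (0.81 CPM in precursors), from 15 UMIs in 4 cells.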

How the results depend on the processing

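The share of all genes was computed without the level minimum for the state comparisons, as given above, and at no other alternative setting. The counts at those other settings can therefore not be set against all genes. Counts of members past 1.5-fold depended most on the level minimum, since most members lie under 50 CPM. Raising it to 50 CPM left 2 higher in committed, 1 in F3-type and 1 in cycling cells, and 0 apart between libraries in committed cells. Dropping it gave 5 lower in committed, 7 in F3-type and 1 in cycling cells, and 1 higher in library 2 in Dpp4-type cells, as did thinning (1). A 2-fold threshold left 2 higher and 1 lower in F3-type cells and 1 higher in library 2 in committed cells. With the listed genes among the variable genes 4 were higher in F3-type cells, and with 3000 variable genes 5 were higher in library 2 in committed cells; these causes were not tested. Without cells of 3 or more type I transcripts, which by construction lowers these genes, 3 were higher in cycling cells and 0 between libraries in committed cells. A variance ratio of 2 left 6 concentrated members. The share of cells was 12.9% and 14.7% at 2 UMIs, 1.90% and 2.84% at 5, 0.346% and 0.959% at 10, 11.2% and 11.9% unthinned, and 83.5% and 84.9% over all members but B2m, Tapbp, Bst2 and Psmb8. The ratio of the second set was 8.94 and 13.6 in the top 1% of cells and 3.66 and 4.84 in the top 10%. It was 4.76 in Y-positive cells of library 1, and in library 2 it was 7.99 in Xist-positive cells and 8.55 for the first set in cells chosen on the second. Of the other values, 139 such summaries stayed within their limits, and of single genes 415 kept their call, 36 lost it and 0 reversed. With 1 library per diet, intervals cover counting error only. No paired analysis was possible because each diet has 1 sample and no label ties the barcode suffixes to samples.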
